A study of Mus musculus with 4 samples.

Results

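The heat shock and unfolded protein response genes of the mouse ventricle were compared between wild-type hearts and hearts with a genetic deletion of Trpc6, a calcium-permeable cation channel gene. The set was a fixed list of 48 genes, chosen by symbol and not by level, but with earlier results of these data known. It held 22 cytosolic genes, 6 mitochondrial genes and 20 genes of the endoplasmic reticulum. Of the 48, 44 had a probe under their symbol, and 43 of these were above background and were tested among 15955 genes in all. Hspa1b, Hsp90ab1, Hspb2 and Hsf1 had no probe under that symbol and were not analysed here.

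Ventricular muscle came from male mice of strain 129SV, with 2 wild-type (WT) and 2 TRPC6 knockout samples. Each sample was read on 1 single-colour oligonucleotide array. The labels used here give no age, do not describe the allele, and do not tie samples to individual mice. The p-values therefore cover the variation among these 4 samples only, and that variation could be technical.

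Chaperones bind unfolded or newly made proteins and keep them from clumping, mostly in cycles driven by ATP. In the cytosol, heat shock factors raise the transcription of chaperone genes when unfolded protein accumulates. In the endoplasmic reticulum, the sensors IRE1, PERK and ATF6 start the unfolded protein response, and mitochondria keep their own chaperones and proteases. Cardiac muscle relies on small heat shock proteins and BAG3 to maintain its contractile filaments.

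These responses are known to act through short promoter elements, and the genes that carry exact copies are shown for that reason. RefSeq promoter windows of the GRCm38.p6 build, running from 250 bases before to 50 bases after a transcript start, were found for 38 of the 48 genes. The endoplasmic reticulum stress response element, searched as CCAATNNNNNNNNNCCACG on both strands, was present in 7 of 17 endoplasmic reticulum genes with a window, or 41.2%, and in 0.137% of all 27025 genes with one. It was absent from the windows of the cytosolic and mitochondrial genes. The 8 matches, read 5′ to 3′ on the strand of the element with the fixed letters in capitals, were these.
Hspa5: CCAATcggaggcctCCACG
Hsp90b1, far match: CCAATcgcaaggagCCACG
Hsp90b1, near match: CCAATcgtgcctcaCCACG
Dnajc3: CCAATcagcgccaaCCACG
Creld2: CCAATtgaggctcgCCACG
Calr: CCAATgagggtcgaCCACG
Canx: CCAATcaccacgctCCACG
Pdia6: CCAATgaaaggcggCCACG

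Hspa5 encodes BiP, the HSP70 of the endoplasmic reticulum. Its match lay 47 to 65 bases before the start, at chr2:34772025-34772043 on the plus strand. The 250 bases before that start, chr2:34771840-34772089 on the plus strand, are given with the match in capitals.
Hspa5: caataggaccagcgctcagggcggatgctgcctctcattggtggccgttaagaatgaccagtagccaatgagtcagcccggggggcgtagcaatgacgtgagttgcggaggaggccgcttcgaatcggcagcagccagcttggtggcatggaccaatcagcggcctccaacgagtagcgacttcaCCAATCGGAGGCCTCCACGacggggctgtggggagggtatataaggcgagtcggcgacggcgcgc
Hsp90b1 encodes GRP94, the HSP90 of the same compartment, and was the only gene of the set with 2 matches to this endoplasmic reticulum element. Its 250 bases before the start, chr10:86705445-86705694 read on the minus strand, hold the near match as its reverse complement.
Hsp90b1: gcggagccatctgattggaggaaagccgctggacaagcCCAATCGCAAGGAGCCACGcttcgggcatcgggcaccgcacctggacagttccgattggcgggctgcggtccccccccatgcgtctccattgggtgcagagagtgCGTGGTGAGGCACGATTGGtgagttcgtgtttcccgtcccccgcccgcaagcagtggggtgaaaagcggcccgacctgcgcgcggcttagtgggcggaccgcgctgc

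The heat shock element with 3 units, searched as GAANNTTCNNGAA on both strands, was present in 3 of the 38 genes, Hsph1, Hspd1 and Hspe1, and in 0.662% of all genes with a window. Hspd1 and Hspe1 encode the mitochondrial chaperonin HSP60 and its partner HSP10, and they lie head to head on opposite strands of chromosome 1. One window of Hspd1 and the window of Hspe1 shared 285 bases, and both held the same pair of overlapping matches. The stretch chr1:55088053-55088082, read on the strand of Hspe1, is given with the 18 bases of the matches in capitals.
Hspd1 and Hspe1: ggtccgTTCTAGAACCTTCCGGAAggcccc
In Hsph1 the match GAActTTCcaGAA lay after the start. A match is a description of the letters and not a measured binding site.

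Levels below are normalized log2 intensities of 1 probe per gene, and differences are the knockout mean minus the wild-type mean on that log2 scale. Group values are mean ± SD with n = 2 arrays, and differences carry their limma standard error. The typical probe was close above background, with array medians of 95.5 to 106 units against blank spots of 78.4 to 87.5 units. The share of gene probes above background was 76.3% to 83.2%. Precision is limited by having 2 arrays in each group. Trpc6 could not check the labels, since its probe read 80.5 and 89.2 units in wild type and 84.1 and 82.6 units in the knockout, below the background limit on each array. All 10 ventricular cardiomyocyte markers, among them Myh6, Myl2 and Tnnt2, were above background on all 4 arrays. The RNA comes from whole muscle, where fewer cells of a type and less RNA per cell cannot be told apart.

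In the knockout, 5 genes lay higher at an unadjusted limma p under 0.05. They were the small heat shock protein gene Hspb1, the cochaperone genes Bag3 and Dnajb4, the HSP90 gene Hsp90aa1 and the chaperonin gene Hspe1, each by 15.4% to 24.3%. Hspa5 and the mitochondrial HSP90 gene Trap1 lay lower, 1.14-fold and 1.19-fold below wild type. No member passed the test over all genes, and neither did any other gene: limma called 0 of 15955 at an adjusted p under 0.05 and 1076 at an unadjusted p under 0.05. The 7 members were 16.3% of the 43 tested, against 6.74% of all genes, with 3.67% of all genes higher and 3.08% lower by this rule.

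Brightness bears on that comparison. Of the 43 genes, 37 were brighter than the median gene, and all 7 were among them. Among genes brighter than the median the share was 18.9% of the members and 12.1% of all genes. That cut does not fully match brightness, since the median level was 8.375 for members and 6.372 for all genes. With a variance model that follows intensity, 1 member was under the threshold in place of 7, Hsp90aa1, against 6.22% of all genes. The count was 0 with a normexp offset of 0 and 0 in the authors' table.

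**Figure D1:**
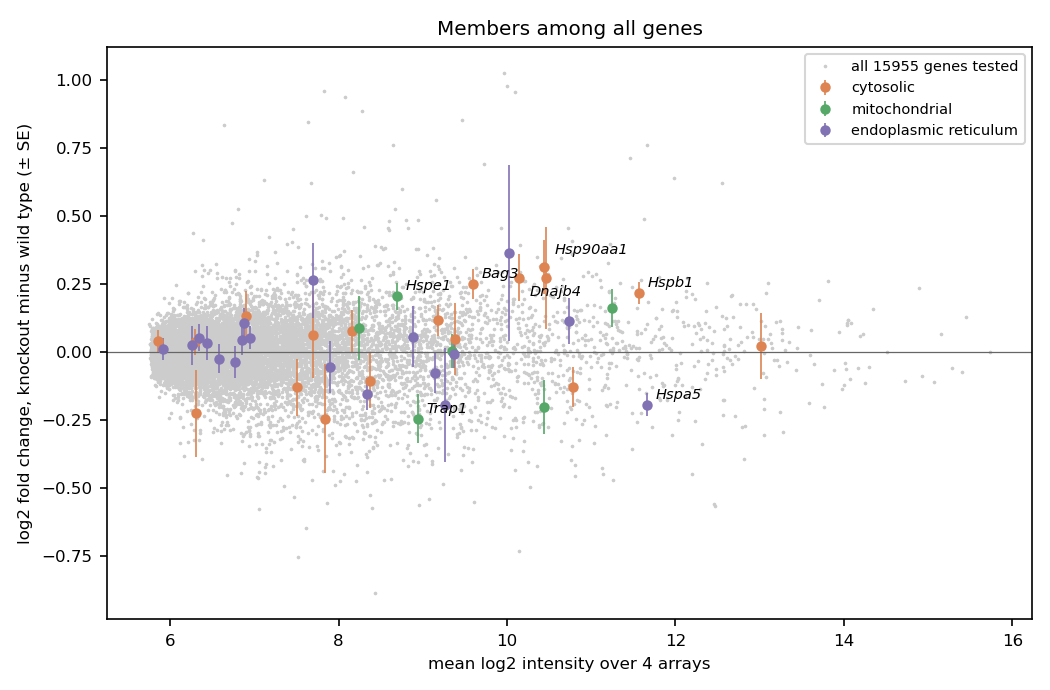
Log2 fold change, knockout minus wild type, against mean log2 intensity for all 15955 genes tested (grey) and the 43 members (coloured by compartment, bars are ± 1 limma standard error). The 7 named members have an unadjusted limma p under 0.05 and none has an adjusted p under 0.05.

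Across the 43 genes, 28 were higher and 15 lower, or 13 and 5 of 18 cytosolic, 4 and 2 of 6 mitochondrial and 11 and 8 of 19 endoplasmic reticulum genes. Of all genes, 51.1% were higher. The groups did not overlap in 15 members, or 34.9%, against 36.8% of all genes, a share near that background. With a difference of at least 0.2 as well, 8 members, or 18.6%, were without overlap, against 4.4% of all genes. That background is not matched for brightness. Most members, 37 of 43, were brighter than the median gene, and the offset of 50 shrinks differences of dim probes. The median difference was 0.057 for cytosolic, 0.047 for mitochondrial and 0.025 for endoplasmic reticulum genes, beside 0.0017 over all genes. The median of the cytosolic genes relative to their wild-type means was -0.039 and 0.039 on the wild-type arrays and 0.038 and 0.093 on the knockout arrays. The first knockout array was level with the second wild-type array, and the median difference of 0.057 stood beside an SD between replicates of 0.048. Endoplasmic reticulum genes stood at -0.016 and 0.010 on the knockout arrays, on both sides of wild type.

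**Figure D2:**
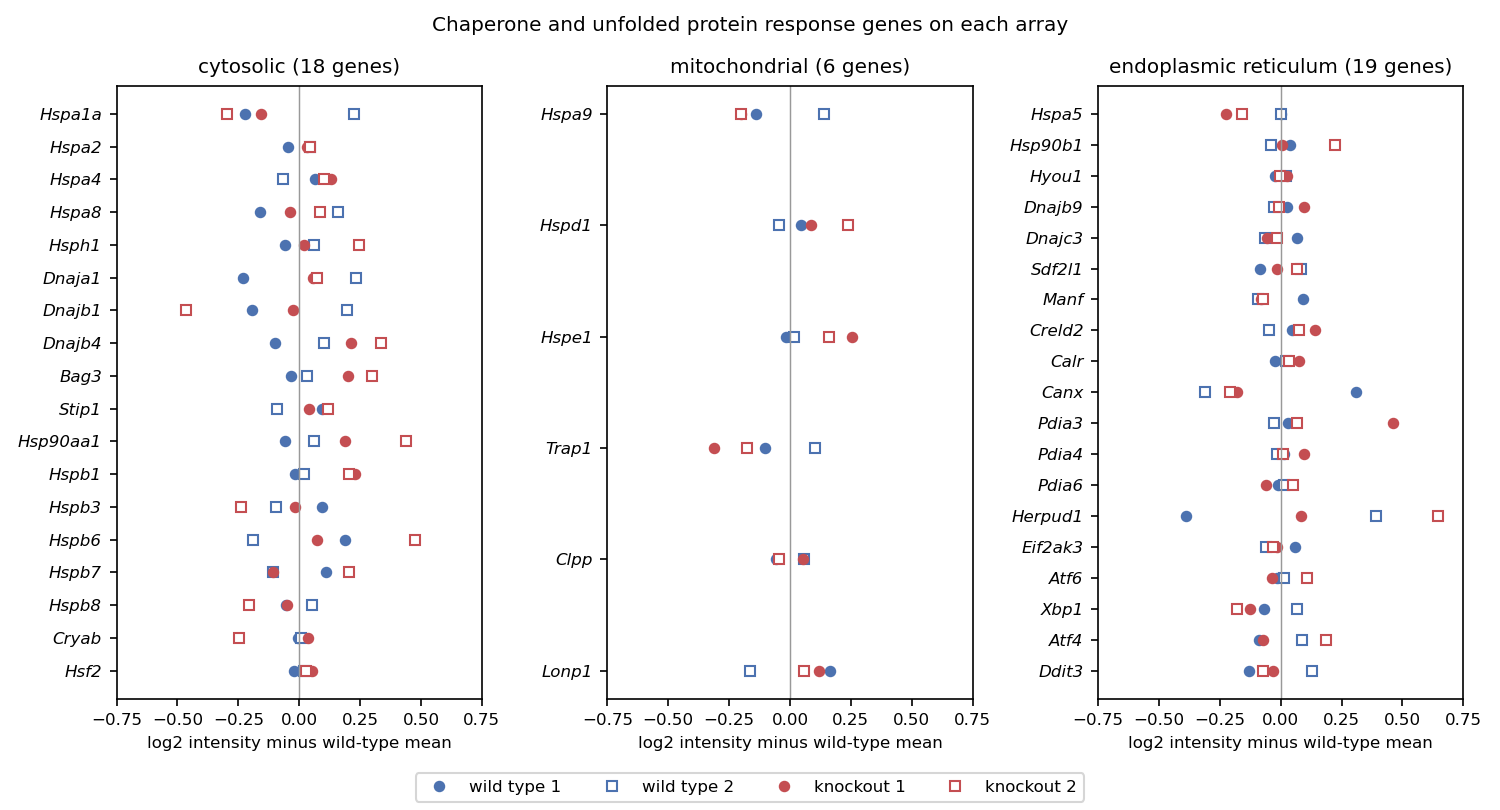
Normalized log2 intensity of each tested gene on each of the 4 arrays, minus the gene's wild-type mean, in 3 panels by compartment. Blue marks are wild type and red marks knockout, with circles for replicate 1 and open squares for replicate 2. Both red marks lie right of both blue marks in 11 of the 43 members, against 19.4% of all genes. They are Hspb1, Bag3, Dnajb4, Hsp90aa1, Hspe1, Hspa4, Hsf2, Hspd1, Creld2, Calr and Pdia3.

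Among small heat shock proteins, Hspb1, which encodes HSP27, an actin-protecting chaperone, stood at 11.44 and 11.47 in wild type and at 11.69 and 11.66 in the knockout. After normalization both knockout arrays were above both wild-type arrays, and the 2 arrays of a group differed little. The difference was 0.22 ± 0.04, 1.16-fold, with a limma unadjusted p of 0.00386 and an adjusted p of 0.727. Of the 7 members it had the smallest p, at rank 73 among all genes. In the authors' table Hspb1 read 2599 and 2453 units in wild type and 3126 and 3072 units in the knockout. Before normalization its spots overlapped, at 2724 and 3129 units in wild type and 3373 and 3083 units in the knockout. The spots of Bag3, Dnajb4 and Hspe1 overlapped between the groups as well.

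The other 5 small heat shock genes tested went both ways and their groups overlapped. Hspb6, a phosphorylated small chaperone of muscle, differed by 0.27 ± 0.19, from 10.52 and 10.14 in wild type to 10.40 and 10.80 in the knockout. Its 2 arrays differed within each group by more than the groups did. Hspb3, Hspb7 and Hspb8 were -0.13 ± 0.10, 0.05 ± 0.13 and -0.13 ± 0.07. Cryab, which encodes alpha-B-crystallin, a partner of desmin and titin, was at 8.42 and 8.43 in wild type and at 8.46 and 8.18 in the knockout. Only the second knockout array was low, and the second Cryab probe gave a difference of -0.008.

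The cochaperone genes Bag3 and Dnajb4 lay higher. Bag3, which couples HSP70 to small heat shock proteins and to autophagy at the Z-disc, was at 9.44 and 9.50 in wild type and at 9.67 and 9.77 in the knockout. The groups did not overlap, and the difference was 0.25 ± 0.05, 1.19-fold, with a limma unadjusted p of 0.00767. Dnajb4, an HSP40 that stimulates the ATPase of HSP70, was at 9.90 and 10.10 in wild type and at 10.22 and 10.34 in the knockout. The groups were apart by little, and the difference was 0.27 ± 0.09 with a limma unadjusted p of 0.0286. Without the first wild-type array it was 0.18 with a limma unadjusted p of 0.0661. The limma unadjusted p was 0.0537 without the first knockout array and 0.134 without the second.

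Hsp90aa1, the stress-inducible cytosolic HSP90, had the largest difference of the 7. It was at 10.23 and 10.34 in wild type and at 10.47 and 10.72 in the knockout, with the second knockout array highest. The difference was 0.31 ± 0.10, 1.24-fold, with a limma unadjusted p of 0.0288. It shrank to 0.20 when the second knockout array was left out, with a limma unadjusted p of 0.0814, and the p was 0.0868 without the first wild-type array.

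Of 3 further heat-inducible genes, Hspa1a and Dnajb1 were lower and Hsph1 higher, none with a limma unadjusted p under 0.05. Hspa1a, an HSP70 that is scarce without stress, was at 6.19 and 6.64 in wild type and at 6.26 and 6.12 in the knockout. Only the second wild-type array stood out, and the difference was -0.23, with a 95% interval from -0.65 to 0.20. It was -0.002 without that array, -0.45 without the first wild-type array, -0.57 with a normexp offset of 0 and -0.66 in the authors' table. Hspa1a has a near-identical neighbour, Hspa1b, and its probe may read both. Dnajb1, the main stress-induced HSP40, was at 7.77 and 8.16 in wild type and at 7.94 and 7.50 in the knockout, again highest on the second wild-type array. The Dnajb1 difference was -0.25, with a 95% interval from -0.78 to 0.29. It was -0.050 without the second wild-type array and -0.024 without the second knockout array, and -0.44 and -0.47 without the first of each. Hsph1, an HSP110 that recharges HSP70 with ATP, was at 6.77 and 6.89 in wild type and at 6.85 and 7.08 in the knockout. Its groups overlapped, and the difference was 0.13 ± 0.09, or 0.072 without the first wild-type array. Leaving out the first knockout array gave 0.25, and leaving out the second gave 0.020.

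Constitutive HSP70 genes and their helpers differed by 0.12 or less. Hspa8, the main HSP70 of unstressed cells, was at 12.84 and 13.16 in wild type and at 12.96 and 13.08 in the knockout, so both knockout arrays fell between the wild-type arrays. Its difference was 0.02, with a 95% interval from -0.30 to 0.34. Hspa4, another HSP110, was 0.12 ± 0.06 and its groups did not overlap, while Dnaja1, Stip1 and Hspa2 were 0.07 ± 0.16, 0.08 ± 0.08 and 0.04 ± 0.05. Hsf2, a heat shock factor, was just inside the background rule, with 81.6 and 92.7 units in wild type against limits of 80.8 and 91.5, and 88.0 and 86.1 units in the knockout against 85.5 and 83.3.

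Of 4 mitochondrial chaperone genes, Hspe1 and Hspd1 were higher and Trap1 and Hspa9 lower, and Hspe1 and Trap1 had a limma unadjusted p under 0.05. Hspe1 was at 8.58 and 8.61 in wild type and at 8.85 and 8.76 in the knockout, without overlap, a difference of 0.21 ± 0.05 with a limma unadjusted p of 0.0107, or 0.0643 without the first knockout array. Hspd1 was at 11.21 and 11.12 in wild type and at 11.25 and 11.40 in the knockout. Its groups were narrowly apart, and the difference was 0.16 ± 0.07 with a limma unadjusted p of 0.0735. It was 0.089 without the second knockout array.

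Trap1 was at 8.97 and 9.18 in wild type and at 8.76 and 8.89 in the knockout, and the lower wild-type array was close to the higher knockout array. The difference was -0.25 ± 0.09 with a limma unadjusted p of 0.0473. Without the second wild-type array it was -0.14, and the limma unadjusted p was 0.134. That p was 0.196 without the first knockout array and 0.0596 without the second. Hspa9, mortalin, which pulls proteins into the matrix, was at 10.41 and 10.68 in wild type and at 10.34 on both knockout arrays. The groups were apart mainly through the second wild-type array, and without it the difference of -0.20 was -0.061. The matrix proteases Clpp and Lonp1 were 0.004 ± 0.063 and 0.09 ± 0.12, with overlapping groups.

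In the endoplasmic reticulum, Hspa5 lay lower on both knockout arrays. It read 3425 and 3829 units in wild type and 2984 and 2951 units in the knockout, or 11.76 on both wild-type arrays and 11.54 and 11.61 on the knockout arrays after normalization. The difference was -0.19 ± 0.04, with a limma unadjusted p of 0.00837 and an adjusted p of 0.727. Over the 4 fits that each left out 1 array it stayed between -0.23 and -0.17, and without the first knockout array the limma unadjusted p was 0.0501.

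Other folding genes of the compartment lay on both sides of wild type. Hsp90b1 was at 10.71 and 10.64 in wild type and at 10.68 and 10.90 in the knockout. The first knockout array fell between the wild-type arrays. Of the 7 genes with an exact stress response element, Hspa5 included, 3 were higher and 4 lower, between -0.19 and 0.11, with a median of -0.005. Calr and Canx, the lectin chaperones calreticulin and calnexin, were 0.05 ± 0.04 and -0.19 ± 0.21, and Canx was high only on the first wild-type array, at 9.67 against 9.05 to 9.18. Pdia3, a disulfide isomerase that works with these lectins, was at 7.60 and 7.54 in wild type and at 8.03 and 7.64 in the knockout. Its difference of 0.26 ± 0.14 was 0.067 without the first knockout array. Pdia4 and Pdia6 were 0.05 ± 0.05 and -0.005 ± 0.053.

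The cochaperones and secreted factors that BiP works with showed small differences, most of them on dim probes. Dnajb9, Dnajc3, Sdf2l1, Hyou1, Manf and Creld2 lay between -0.08 and 0.11, and both probes of Dnajc3 were lower by 0.04 or less. Apart from Manf, these probes read 84.6 to 152 units against background limits of 80.8 to 91.5. The offset shrinks differences at such levels, so small values there do not show that the genes were unchanged. Herpud1, which serves the degradation of misfolded proteins, had the largest difference of the set, 0.37 ± 0.32, and the widest spread. It was at 9.45 and 10.23 in wild type and at 9.92 and 10.49 in the knockout, so the first array of each group was the lower.

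Sensors and transcription factors gave no shared direction. Ern1, which encodes IRE1, was at the level of blank spots, with 79.5 and 86.9 units in wild type and 80.3 and 79.8 units in the knockout, below the limit on all 4 arrays. Eif2ak3 (PERK) and Atf6 were -0.02 ± 0.05 and 0.04 ± 0.06, on dim probes of 111 to 131 units. Xbp1, whose mRNA IRE1 splices, was at 8.35 and 8.48 in wild type and at 8.29 and 8.23 in the knockout. The groups were narrowly apart, and the difference was -0.15 ± 0.06 with a limma unadjusted p of 0.0575. It was -0.087 without the second wild-type array, and without the first it was -0.23 with a limma unadjusted p of 0.0124. The array value does not tell spliced from unspliced Xbp1. Atf4, the factor translated when PERK is active, was at 8.77 and 8.94 in wild type and at 8.78 and 9.04 in the knockout. Ddit3, the death-linked factor CHOP, was at 7.79 and 8.05 in wild type and at 7.89 and 7.85 in the knockout. Both overlapped, with 95% intervals from -0.24 to 0.35 and from -0.31 to 0.20.

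**Figure D3:**
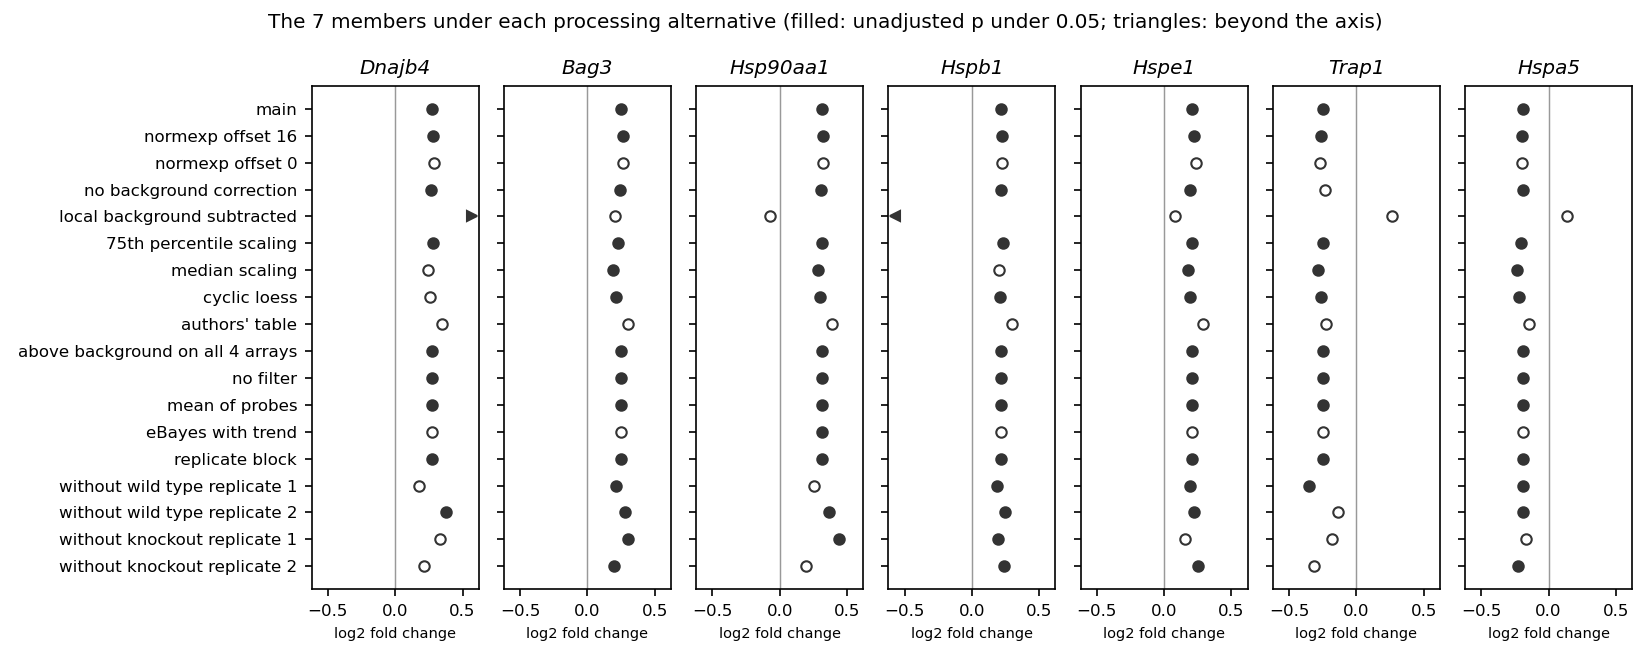
Log2 fold change (knockout minus wild type) of the 7 members with an unadjusted limma p under 0.05, in the fit as reported ("main") and under 17 processing alternatives. Filled marks have an unadjusted p under 0.05 and triangles lie beyond the axis; Bag3, Dnajb4 and Hspe1 stayed above 0 in every fit, while Hsp90aa1, Hspb1, Trap1 and Hspa5 changed sign when local background was subtracted. That setting also moved Dnajb4 to 2.83 and Hspe1 to 0.083, and left Bag3 at 0.205.

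In the authors' table the 2 groups of each of the 7 genes did not overlap either, with the same direction in 7 of 7. Hspa5 averaged 3152 and 2846 units there, a knockout to wild-type ratio of 0.903, and Hsp90aa1 1086 and 1430 units, a ratio of 1.32. That table starts from the same spot readings, from which the 7 genes were picked, and is not a second measurement. In it the limma unadjusted p of the 7 ran from 0.109 for Hsp90aa1 to 0.496 for Hspa5.

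Related genes outside the 48 showed shares near the background. Of 35 other cytosolic chaperone genes tested, 3 were higher and 0 lower at a limma unadjusted p under 0.05, or 8.57%. They were Hsbp1, a binding partner of heat shock factor 1, Bag2, an HSP70 cochaperone, and Dnaja2, an HSP40, at 0.16 ± 0.05, 0.19 ± 0.06 and 0.19 ± 0.07. Of 16 other mitochondrial quality control genes, Grpel1, the nucleotide exchange factor of mortalin, was higher by 0.16 ± 0.06, and Clpx, the partner of the protease CLPP, was -0.21 ± 0.06. Of 36 other endoplasmic reticulum folding and degradation genes, Ppib, a prolyl isomerase, and Edem3, a mannosidase of degradation, were 0.20 ± 0.05 and 0.14 ± 0.05. Of 19 integrated stress response genes, Gars, a tRNA synthetase, was 0.26 ± 0.06. Ppp1r15a, which restores translation after stress, was -0.23 ± 0.10 with a limma unadjusted p of 0.0781. In all, 8 of 106 such genes were under the threshold, or 7.55%. By list, the mitochondrial share was 12.5%, from 1 gene higher and 1 lower. The endoplasmic reticulum list had 5.56% and the integrated stress response list 5.26%.

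Signatures of some other cells and of handling also differed between the arrays, and their part in these results was not tested. The marker lists not described below had knockout to wild-type ratios of summed spot intensity above blank from 0.802 (lymphocyte) to 1.13 (macrophage). Among them, endothelial and smooth muscle lists stood at 1.05 and 1.02. Summed spot intensity above blank over the 6 erythroid markers on the array was 947 and 3020 units in wild type and 3345 and 3378 units in the knockout, and 5 of 5 tested were higher, with 1 of the 6 at background on all arrays. The first wild-type array, low for globins, was also the lowest array for 17 of the 43 members, or 39.5%, against 22.5% of all genes. The second wild-type array was lowest for 15, or 34.9%, against 32.3%. The knockout arrays were lowest for 5 and 6, or 11.6% and 14%, against 20.7% and 24.6%. The 17 immediate early and handling genes summed to 1877 and 2248 units in wild type and 1679 and 1541 units in the knockout, with 13 lower and 4 higher. The 8 fibroblast markers summed to 4368 and 4310 units in wild type and 3693 and 3137 units in the knockout, yet 4 were higher and 4 lower with a median of 0.003. Dcn was -0.47 and Col3a1 0.49. The 4 atrial markers on the array summed to 3321 and 3557 units in wild type and 4156 and 5975 units in the knockout. Nppa was 0.64, while Myl7, Myl4 and Bmp10 were 0, -0.45 and -0.12. The 6 neutrophil markers summed to 210 and 264 units in wild type and 135 and 103 units in the knockout, with 1 of them at background on all arrays. Ly6g was -0.75, and the other 3 tested, S100a8, S100a9 and Retnlg, lay between -0.075 and 0.023. Without the first wild-type array 14 members, or 32.6%, were under the unadjusted threshold, against 14.7% of all genes. Without the second, 11 members were, or 25.6%, against 6.98% of all genes.

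**Figure D4:**
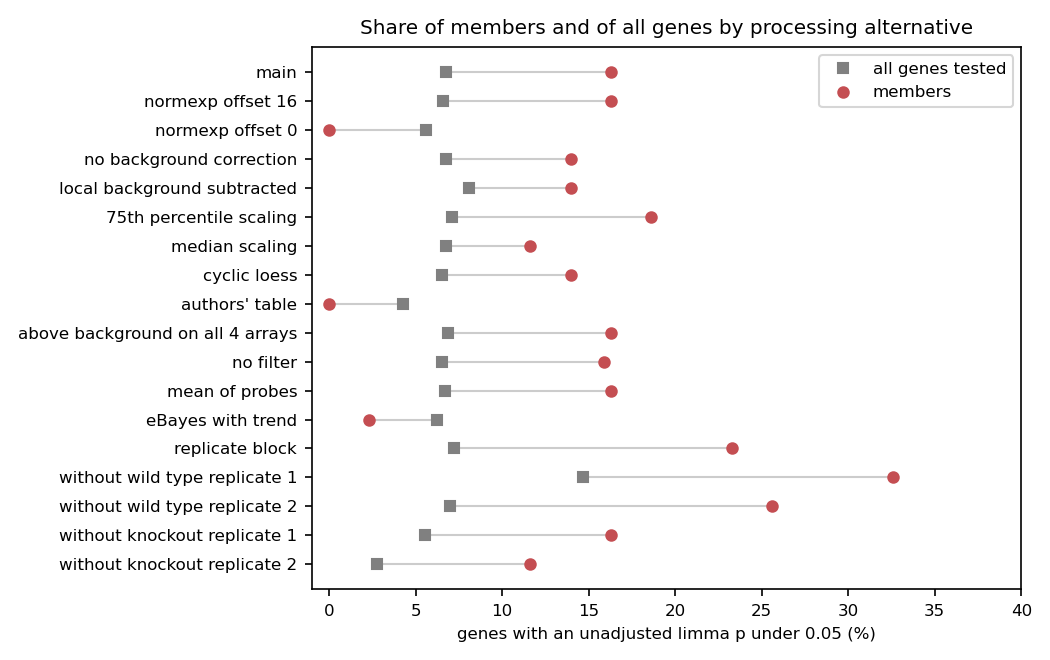
Percentage of genes with an unadjusted limma p under 0.05 among the members (red circles) and among all genes tested (grey squares), in the fit as reported ("main") and under 17 alternatives. The members' share ranged from 0% to 32.6%, and it lay below that of all genes with a normexp offset of 0, in the authors' table and with a variance trend.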

How the data were processed

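Per the labels' protocols, total RNA was amplified as amino allyl aRNA and coupled to Cy5. The deposited scanner files hold the median intensity of each spot and of its local surround, unlogged, per the file headers. These headers list fitted lines between scanner gains without stating how they were applied. A second deposited file, the authors' own table of linear intensity with a median of 25 per array, served as an alternative.

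Spot medians were corrected with normexp (limma 3.58.1, R 4.3.3, offset 50) and quantile normalized as log2 values after control spots were dropped. Local background was left in, as it tracked the spots, with a correlation of 0.928 to 0.965 on the log2 scale. A probe was kept if it exceeded the 95th percentile of blank and negative control spots on at least 2 arrays, and the brightest kept probe stood for a gene. The offset shrinks differences of dim probes. Genes were named through the platform annotation. The arrays were tested with lmFit and eBayes, two-sided, with Benjamini-Hochberg adjustment over 15955 genes and a threshold of 0.05. An exact permutation of 2 against 2 arrays cannot reach that threshold. The code was tested on simulated data.

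The members, the related lists, the markers and the naming rule were chosen with earlier results of these data known. Values on every array are given for preset stress genes and for members with an unadjusted p under 0.05, or without overlap and differing by 0.2 or more on the log2 scale. Hspb6, Canx and Herpud1 were added after their values were seen, and related genes are named from the smallest p. Alternatives changed background, normalization, filter, source, probe choice, variance model and arrays, or added the replicate number.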

Additional observations from a re-analysis of the deposited data

How the results depend on the processing

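No alternative gave a gene with an adjusted limma p under 0.05, against 0 in the fit as reported. The 7 members under the unadjusted threshold, 16.3% against 6.74% of all genes, became 0 with a normexp offset of 0 (all genes 5.58%), 0 in the authors' table (4.29%) and 1 with an intensity trend in the variance (6.22%). When single arrays were left out, the number of members under this threshold ranged from 5 to 14. They were not the same genes in each of these fits, which leave 1 array in a group. The shares ranged from 11.6% to 32.6% of the members, against 2.78% to 14.7% of all genes. With the replicate number as a block 10 members were under the threshold, or 23.3%, against 7.2% of all genes. The numbers are shared labels only: deviations of same-numbered arrays correlated at 0.097 across genes, and with 2 pairs this decides nothing. After median scaling 3 members were higher and 2 lower in place of 5 and 2, and 397 and 676 of all genes in place of 585 and 491.

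The cytosolic median of 0.057 was 0.009 after local background subtraction and 0.131 in the authors' table, and 0.037 to 0.095 without single arrays. The mitochondrial median of 0.047 was 0.16 and 0.108 in these alternatives, and 0.001 to 0.072 without single arrays. The endoplasmic reticulum median of 0.025 was 0.047 with an offset of 16, 0.076 with an offset of 0, 0.048 with 75th percentile scaling, 0.07 in the authors' table and -0.08 after local background subtraction, and -0.016 to 0.038 without single arrays.

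Local background subtraction turned Hspa1a (0.015), Hsp90aa1 (-0.073), Hspb1 (-1.538), Cryab (0.004), Trap1 (0.263), Hspa5 (0.14), Pdia3 (-0.012) and Atf4 (-0.08). It moved Dnajb4 to 2.832, with a limma unadjusted p of 2.04e-05, Hspa8 to 3.509 and Hspe1 to 0.083, and Bag3 had a limma unadjusted p of 0.555. The turned Hspb1 value had a limma unadjusted p of 0.000246. On the knockout arrays the local background of Hspb1 was 2930 and 2766 units, near its spot values of 3373 and 3083. On the wild-type arrays that background was 1639 and 1737 units, against spot values of 2724 and 3129. Hspa8 turned with median scaling (-0.028), cyclic loess (-0.014), without the first wild-type array (-0.14) and without the second knockout array (-0.047). Without single arrays, Hspa8 ranged from -0.14 to 0.195, Atf4 from -0.076 to 0.185, Cryab from -0.245 to 0.036 and Ddit3 from -0.185 to 0.078. The cause was not tested. Signal over background limits Hsf2, Hyou1 and Hspa1a. It also limits other dim members, among them Hspa2, Sdf2l1, Pdia4, Atf6 and Eif2ak3, whose probes read 97.8 to 131 units.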
